A study of Mus musculus with 4 samples.

Results

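Overlapping tail-to-tail gene pairs are pairs of protein-coding genes on opposite strands whose last parts lie on the same stretch of genome, so that each gene runs into the end of the other. Pairs were taken from the GENCODE M21 annotation (GRCm38): the plus-strand gene had to start first and end at or past the annotated start of the minus-strand gene, with neither gene inside the other. Of 889 such pairs in the annotation, 885 had both members in the count table and 622, with 1239 different genes, had 10 or more counts for both members in each of the 4 libraries. The other 267 annotated pairs had a member outside the table or failed the count minimum, and are not described. The rule used no comparison between groups, but its count minimum applied to both groups, so a gene lost entirely in one group could not enter.

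The libraries came from intestinal crypts, the epithelial pits that hold the stem cells of the intestine, released with 2 mM EDTA from C57BL/6 mice. There were 2 libraries of wildtype (WT) mice and 2 of Vil-CREPTKO mice, which carry CREPT (Rprd1b) alleles with loxP sites around exon 3 and a Cre recombinase driven by the villin promoter, active in the intestinal epithelium and not in immune or stromal cells of the tissue. The study used mice of both sexes at 6 to 8 weeks. RNA-seq of the crypts was done on 2 mice per genotype, which with 2 libraries a group is 1 mouse a library, and p-values here measure the spread between 2 mice a group.

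CREPT, also named RPRD1B, binds the C-terminal tail of RNA polymerase II, the part of the enzyme that recruits factors for RNA 3′ end cleavage, polyadenylation and termination. At a tail-to-tail pair, polymerases from both strands approach each other. In an overlapping pair, a polymerase that runs past the annotated end of its own gene moves further into its neighbour. The poly(A) signal, most often the letters AATAAA, typically lies shortly before such an end. Messages from such pairs also share complementary bases at their 3′ ends.

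The annotated 3′ ends of 3 pairs with an overlap of 30 bp or less are printed because they show in letters what a tail-to-tail overlap is. Each line holds the last 30 bases of the gene's own strand, 5′ to 3′, as in the GENCODE M21 transcript sequences, and the capitals mark the bases that lie in the overlap. In each of these pairs the capitals of one gene are the reverse complement of those of the other. Yif1a and Cnih2 overlap by 14 bp (chr19:5092868-5092881), Vdac2 and Comtd1 by 25 bp (chr14:21845855-21845879), and Ckmt1 and Strc by 10 bp (chr2:121363728-121363737).
Yif1a, plus strand: gaagcagaattggggcTTGTGTGTTTTCAG
Cnih2, minus strand: aaatatgaataaactaCTGAAAACACACAA
Vdac2, plus strand: tacaaTAAAATACAAGGATACATACTTTAA
Comtd1, minus strand: gagtaTTAAAGTATGTATCCTTGTATTTTA
Ckmt1, plus strand: gtcctagtaaagactccacaTTATGTTGCA
Strc, minus strand: atagaaataacacagacagcTGCAACATAA

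In the next set, the ends of 4 pairs that carry the results below, capitals mark the poly(A) signal AATAAA or ATTAAA where the last 30 bases hold one. All of these 30-base ends lie inside the overlap with the partner. The Nfatc3 end lies at chr8:106130508-106130537 and the Esrp2 end at chr8:106130319-106130348, the Gon4l end at chr3:88910074-88910103 and the Msto1 end at chr3:88905107-88905136, the Pmpca end at chr2:26397093-26397122 and the Inpp5e end at chr2:26396249-26396278, and the Rprd1b end at chr2:158132268-158132297 and the Tgm2 end at chr2:158116402-158116431.
Nfatc3, plus strand: gacatAATAAAcagtgacagatcaacagtc
Esrp2, minus strand: ccgttctataaacacaaggtttcatcttga
Gon4l, plus strand: gaaaagagtaaaactgttcctatgtagctc
Msto1, minus strand: ctactcAATAAAgccaaaacccgagaactg
Pmpca, plus strand: atatggaaaAATAAAtgatttagaagacta
Inpp5e, minus strand: actggacttgtaaataattgtgagatacaa
Rprd1b, plus strand: aaagcttgaatgaatagccctgagaacctc
Tgm2, minus strand: tgaAATAAAggtctatttttcacattcaaa

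In the last 50 bases of the annotated end, on the gene's own strand, AATAAA was found in 686 of the 1239 members (55.4%) and ATTAAA without AATAAA in 164 (13.2%). Among 11459 other protein-coding genes with 10 or more counts in every library, the shares were 64.7% and 14.8%. Part of the annotated ends belong to transcripts not marked protein-coding (retained introns, for example), and among the 1034 members whose end came from a protein-coding transcript the share with AATAAA was 57.1%, against 65.7% in the other genes. Of the 46 members described below as lower in Vil-CREPTKO, 16 held AATAAA (34.8%) and 8 ATTAAA alone (17.4%). A match is a run of letters, not a measured cleavage site.

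The overlaps ran from 1 bp (Plekhg3/Sptb) to 83227 bp (Rabgap1/Strbp), with a median of 1283 bp and quartiles of 222 and 4182 bp. Exons of the 2 members overlapped in 594 pairs (95.5%), by a median of 352 bp over all pairs, and in 250 pairs the whole overlap was exonic in both. The levels of the 2 members, in CPM (counts-per-million, scaled between libraries) per kb of exon, differed by a median of 3.91 times in WT and by up to 2547 times. The map of 6 pairs shows short overlaps confined to the last exons (Nfatc3/Esrp2, Erfe/Ilkap, Pmpca/Inpp5e) and longer ones that reach into introns and inner exons of the partner (Gon4l/Msto1, Atg4d/Kri1, Rprd1b/Tgm2).

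**Figure D1:**
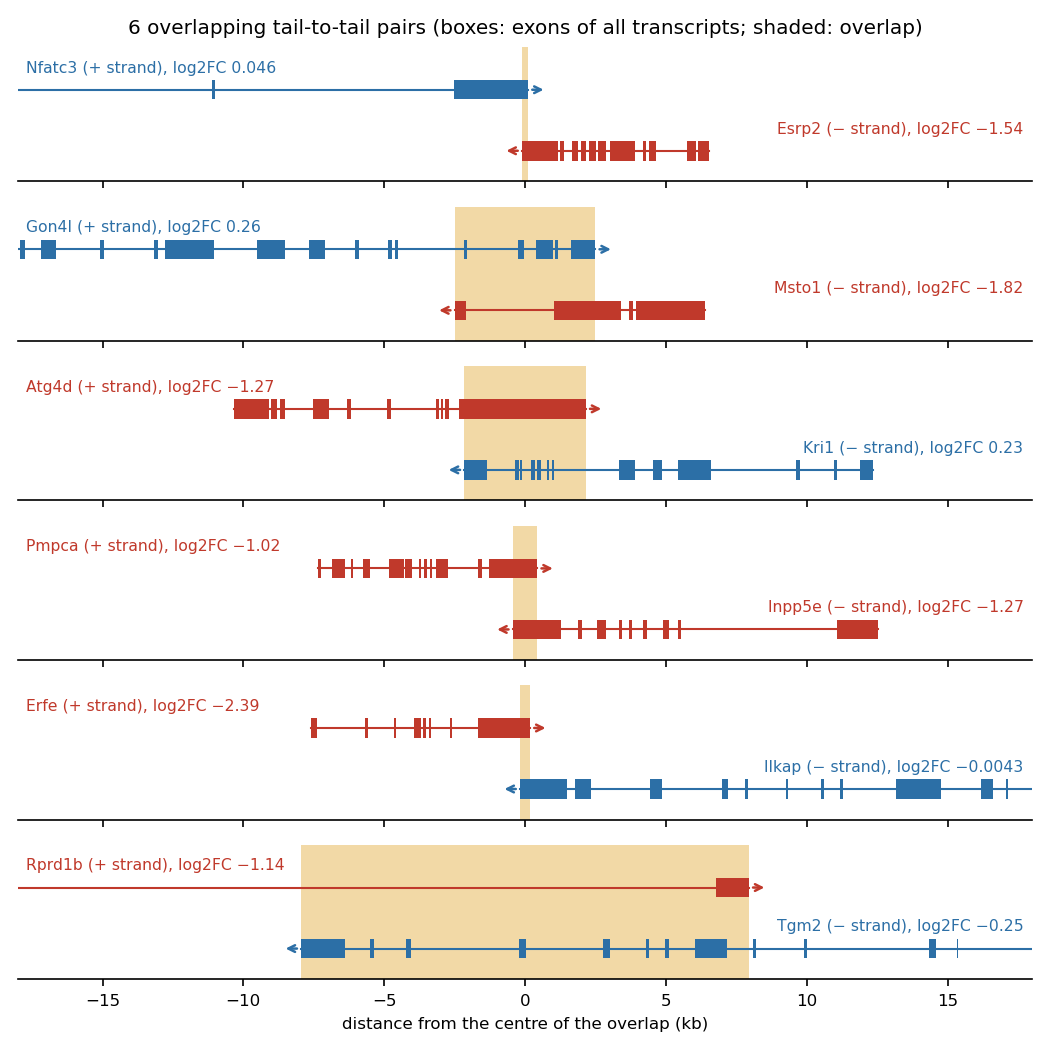
Exons (boxes, all transcripts merged) and gene bodies (lines) of 6 pairs, with the distance from the centre of the overlap in kb on the x axis, arrows for the direction of transcription and shading for the overlap; genes called lower in Vil-CREPTKO are red and the others blue, with their log2 fold changes (Vil-CREPTKO against WT). Nfatc3 and Esrp2 share 219 bp at their ends, while Rprd1b and Tgm2 share 15896 bp.

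Total counts were 47241049 to 49369315 per library. Mitochondrial genes held 6.75% and 6.93% of the counts in WT and 7.62% and 10.2% in Vil-CREPTKO. WT replicate 2 carried Xist and no Y-linked counts, while the other 3 libraries carried Y-linked transcripts, so sex was not balanced between groups. Crypt epithelium markers were present in all libraries, at a summed 11042 to 13890 CPM over 9 genes (sums over the crypt, immune, stromal, endothelial and blood lists, and the single genes of these lists, are per library total, without scaling between libraries). The sum over 9 immune markers was 269 and 177 CPM in WT, compared with 172 and 147 CPM in Vil-CREPTKO, all 9 were present in the table with counts, and the part of immune cells in the results below was not tested.

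Rprd1b, the targeted gene, is itself the plus-strand member of an overlapping pair, with Tgm2, a transglutaminase, on the other strand (chr2:158116402-158132297). Rprd1b had 60.5 and 61.6 CPM in WT and 26.3 and 29.0 CPM in Vil-CREPTKO, so that both Vil-CREPTKO libraries lay below both WT libraries. Its log2 fold change (Vil-CREPTKO against WT, here and throughout) was −1.14 (SE 0.12, adjusted p = 0.0041, edgeR's quasi-likelihood test over 17504 genes). The counts cover the whole gene and not only the deleted exon 3, and crypt preparations can hold cells without Cre. Tgm2 had 93.9 and 116 CPM in WT and 79.1 and 98 CPM in Vil-CREPTKO, overlapping groups, with a log2 fold change of −0.25 (SE 0.15, adjusted p = 0.549). The ratio of Rprd1b to Tgm2 fell by 0.90 on the log2 scale (SE 0.18, adjusted p = 0.0358, limma over neighbouring pairs).

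The main question for the pairs was whether their members were lower or higher in Vil-CREPTKO crypts than in WT crypts. A gene was called lower or higher at an adjusted p under 0.05 and an absolute log2 fold change over 1, the thresholds of the study. Of the 1239 members, 46 were called lower (3.71%), against 235 of all 17504 genes tested (1.34%) and 201 of all 12704 protein-coding genes with 10 or more counts in every library (1.58%). Among the 11465 protein-coding genes of this kind outside the pairs, 155 were called lower (1.35%). Only 2 members were called higher (0.161%), with a background of 0.297% over all genes tested. Without the fold threshold, 81 members had an adjusted p under 0.05 (6.54%), against 2.71% of all genes tested. No test compared the members with the other genes as a set, so these shares are descriptions.

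The shift was also visible beyond the called genes. The median log2 fold change over the members was −0.074 (quartiles −0.33 and 0.094), and 750 of 1239 (60.5%) were negative. Over all genes tested the median was −0.006, and 50.9% were negative. Both WT libraries lay above both Vil-CREPTKO libraries in CPM for 425 members (34.3%), where 24.2% of all genes tested did so. Against the mean of the WT libraries, the median member stood at −0.09 in Vil-CREPTKO replicate 1 and −0.062 in replicate 2 on the log2 scale. Without WT replicate 1 the median was −0.049.

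The transcripts' GC content and the length of the gene body moved with the share of genes called lower, and this touches the comparison above. The 46 members called lower had a median GC content of 54.6% and a median gene body of 8931 bp, against 51.0% and 21533 bp in the 1193 other members. In the lowest GC quartile of all protein-coding genes, 0 of 244 members were called by edgeR (17 had an unadjusted p under 0.05) and 0.58% of the other genes were called lower. In the quartiles above it, from low to high GC content, the shares were 3.1%, 4.08% and 6.22% in members and 0.867%, 1.82% and 2.19% in the other genes. In the quartile with the shortest gene bodies, 7.4% of members and 3.14% of the other genes were called lower, and in that with the longest 0.833% and 0.272%. After each library was corrected for GC content and exonic length, 25 members were called lower (2.02%), against 1.07% of all genes tested. The members' median log2 fold change became 0.0017, against 0.048 over all genes tested. Gene body length was not part of this correction.

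**Figure D2:**
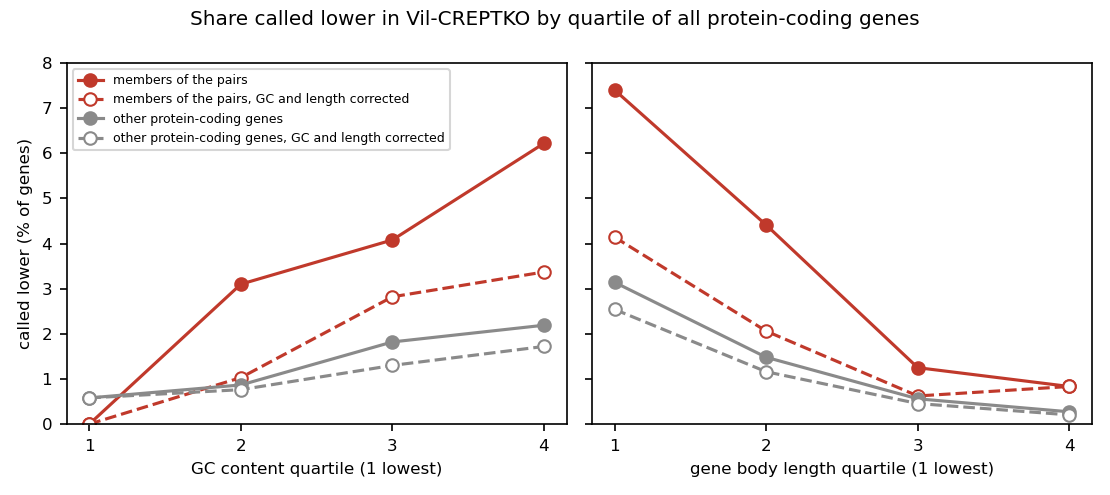
Percent of genes called lower in Vil-CREPTKO (y axis) by quartile of GC content (left) and of gene body length (right), for members of the pairs (red) and other protein-coding genes (grey), before (filled, solid) and after (open, dashed) correction for GC content and exonic length, not gene body length. Members lie above the other genes in all quartiles but the lowest GC quartile before correction, from 7.4% against 3.14% in the shortest gene bodies to 0.833% against 0.272% in the longest.

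Other kinds of neighbouring genes gave a scale for these shares. Tail-to-tail neighbours with a gap of 1 to 5000 bp between their ends, 1927 genes outside the overlapping pairs, had 45 called lower (2.34%) and a median log2 fold change of −0.031. Genes of head-to-head pairs, whose bodies overlap at their 5′ ends, had 12 of 719 called lower (1.67%) and a median of 0.0057. Protein-coding genes in none of these kinds of pair had 102 of 8968 called lower (1.14%). After the correction for GC content and length, the share was 2.02% for both the overlapping members and the gapped tail-to-tail neighbours.

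The called members fall into the roles below, and their partners on the other strand are described with them. The 15 pairs with the smallest p of either member included genes of RNA processing, glycosylation, autophagy, mitochondria and telomeres. These roles were assigned after the values were seen, and no role was tested as a group. Esrp2, an epithelial splicing regulator, overlaps the transcription factor gene Nfatc3 by 219 bp. Esrp2 had 67.7 and 61.5 CPM in WT and 22.0 and 22.5 CPM in Vil-CREPTKO, without overlap, a log2 fold change of −1.54 (SE 0.12, adjusted p = 0.00144). Nfatc3 had 91.6 and 94.4 CPM in WT, compared with 91.1 and 101 CPM, groups that overlap, with a log2 fold change of 0.046 (SE 0.12). Zfp687, a zinc-finger gene that shares 254 bp with the phosphatidylinositol kinase gene Pi4kb (chr3:95006590-95006843), went from 36.8 and 40.7 CPM to 13.3 and 15.5 CPM (log2 fold change −1.43, SE 0.15, adjusted p = 0.00364). Pi4kb stayed between 27.4 and 31.6 CPM in the 4 libraries (log2 fold change −0.059).

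Among genes of protein glycosylation, Pmm2, a phosphomannomutase, fell from 166 and 169 CPM to 74.4 and 68.0 CPM (log2 fold change −1.23, adjusted p = 0.00352), and its partner Carhsp1, an RNA-binding protein gene, had 86.1 and 90.8 CPM against 58.4 and 73.0 CPM (−0.43, adjusted p = 0.173). The gene bodies of Pmm2 and Carhsp1 share 3888 bp but none of their annotated exons overlap. Gmppb, which makes GDP-mannose, fell from 45.2 and 56.1 CPM to 22.7 and 20.5 CPM (−1.23, adjusted p = 0.00566). Its partner Rnf123, a ubiquitin ligase gene, had an adjusted p of 0.0251 with a smaller change, from 51.6 and 54.6 CPM to 34.4 and 32.5 CPM (−0.67). In both pairs the groups of each gene did not overlap. The adjusted p of Rnf123 passed 0.05 without WT replicate 2 and after correction for GC content and length.

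Genes with mitochondrial roles were called in several pairs, a grouping made after the values were seen and not tested against other genes. Msto1, linked to mitochondrial shape and distribution, had 12.5 and 10.8 CPM in WT and 3.29 and 3.32 CPM in Vil-CREPTKO (log2 ratio −1.82, SE 0.20, adjusted p = 0.00434), while Gon4l, a nuclear protein gene that overlaps it by 4997 bp, had 31.4 and 31.5 CPM against 35.6 and 39.9 CPM (0.26, adjusted p = 0.395). Within this pair one gene was lower and the other higher in both Vil-CREPTKO libraries, though only Msto1 passed the test. Ndufaf3, an assembly factor of respiratory complex I, fell from 17.1 and 21.7 CPM to 6.3 and 6.03 CPM (−1.65, adjusted p = 0.00435) and its partner Impdh2, an enzyme of guanine nucleotide synthesis, had 83.0 and 66.8 CPM against 54.4 and 66.4 CPM (−0.31, adjusted p = 0.408). Their overlap is 48 bp long (chr9:108565537-108565584). Pmpca, a subunit of the mitochondrial processing peptidase, fell from 68.3 and 76.6 CPM to 35.0 and 36.6 CPM (−1.02, adjusted p = 0.00566). Its partner Inpp5e, a phosphoinositide phosphatase of cilia, fell as well, from 20.1 and 16.5 CPM to 8.47 and 6.72 CPM (−1.27, adjusted p = 0.0121).

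Atg4d, an autophagy protease, fell from 67.7 and 81.4 CPM to 30.3 and 31.6 CPM (log2 fold change −1.27, adjusted p = 0.00376) beside Kri1, a ribosome biogenesis gene, at 13.3 and 10.2 CPM against 13.7 and 13.8 CPM (0.23). Yif1a, which acts in transport between endoplasmic reticulum and Golgi, fell from 67.2 and 81.3 CPM to 30.4 and 22.9 CPM (−1.48, adjusted p = 0.00459), and Cnih2, which shares the 14 bases printed above, had 1.02 and 1.3 CPM in WT and 1.54 and 1.18 CPM in Vil-CREPTKO. Tinf2, which encodes the shelterin subunit TIN2 of telomeres, fell from 29.4 and 30.3 CPM to 12 and 14.1 CPM (−1.19, adjusted p = 0.00618), while the GMP reductase gene Gmpr2 lay between 5.27 and 5.52 CPM in all 4 libraries (−0.019). In these 3 pairs the partner of the called gene had overlapping or nearly equal groups, except that both Vil-CREPTKO libraries of Kri1 lay just above both WT libraries.

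Dennd2d, a regulator of Rab GTPases, fell from 76.5 and 77.7 CPM to 37.5 and 39.3 CPM (log2 fold change −1.0, adjusted p = 0.00465) beside Cept1, an enzyme of phospholipid synthesis, at 63.2 and 73.8 CPM against 81.5 and 74.3 CPM (0.18). Dennd2d and Pmpca were just past the fold threshold, and after correction for GC content and length their log2 fold changes were −0.97 and −0.95, short of it.

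The largest decrease among the members was that of Erfe, the gene of the hormone erythroferrone, which is best known from red cell precursors. Erfe had 7.87 and 6.95 CPM in WT and 1.08 and 1.73 CPM in Vil-CREPTKO (log2 ratio −2.39, SE 0.30, adjusted p = 0.00614). Its partner Ilkap, a protein phosphatase gene, had 37.1 and 35.8 CPM against 36.3 and 36.4 CPM, overlapping groups (−0.0043). The sum of 3 blood cell markers was 27.4 and 11.1 CPM in WT and 55.1 and 15 CPM in Vil-CREPTKO, overlapping groups. Among them Alas2, the heme synthesis enzyme of red cell precursors, had 0.398 and 0.506 CPM in WT and 0.445 and 0.166 CPM in Vil-CREPTKO. The part of blood cells in the Erfe values was not tested.

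Several called members act in DNA repair and replication; these were picked out after their values were seen and carry no test as a group. Eme1 fell from 8.34 and 8.35 CPM to 2.53 and 2.55 CPM (log2 fold change −1.72, SE 0.22, adjusted p = 0.0063) beside Lrrc59, a ribosome-binding protein gene of the endoplasmic reticulum at 451 and 559 CPM in WT and 563 and 507 CPM in Vil-CREPTKO. Eme2 fell from 6.01 and 6.32 CPM to 1.79 and 1.69 CPM (−1.82, adjusted p = 0.00854) and Mus81 from 8.72 and 8.13 CPM to 3.38 and 2.73 CPM (−1.46, adjusted p = 0.0133). Mus81 is the nuclease subunit that pairs with either Eme1 or Eme2, and each of these 3 genes sits in a tail-to-tail pair of its own. Lig3, a DNA ligase (−1.06), Ogg1, which removes oxidised guanine (−1.02), Donson, a replication factor (−1.01), and Chtf18, a clamp loader subunit (−1.02), were called lower too. Their partners Spsb3 (0.11), Efemp2 (0.0018), Rffl (0.094), Camk1 (−0.29), Son (0.13) and Gng13 (−1.1) were not called.

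Other called members are expressed mostly by tuft cells, the chemosensory cells of the intestinal epithelium. Avil went from 41.0 and 48.2 CPM to 21.7 and 20.7 CPM (log2 fold change −1.07, adjusted p = 0.0063), Sh2d7 from 23.8 and 33.2 CPM to 14.2 and 13 CPM (−1.07, adjusted p = 0.0226) and Il17rb, a receptor subunit for interleukin 25, from 4.72 and 8.05 CPM to 1.29 and 2.44 CPM (−1.77, adjusted p = 0.05 after rounding). None of the 3 had overlapping groups. Of 10 tuft cell markers outside the pairs (a list also picked after these values were seen), 9 passed the filter on low counts, 9 of those had a negative log2 fold change and 1, Trpm5, was called lower. Their summed level was 164 and 227 CPM in WT and 108 and 106 CPM in Vil-CREPTKO, and the part of tuft cell number in the values of Avil, Sh2d7 and Il17rb was not tested. In bulk crypts, fewer cells of a type and less RNA per cell cannot be told apart.

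Stab1, a scavenger receptor gene of macrophages and sinusoidal endothelium, and Oplah, a 5-oxoprolinase of the glutathione cycle, were the 2 members called higher. Stab1 had 4.0 and 3.76 CPM in WT and 11.8 and 6.99 CPM in Vil-CREPTKO (log2 ratio 1.28, SE 0.27, adjusted p = 0.0495), and Oplah 7.48 and 8.78 CPM against 19.6 and 13.3 CPM (1.02, SE 0.22, adjusted p = 0.049). In both, Vil-CREPTKO replicate 1 was the highest library, and neither was called by edgeR when that library was left out. The sum over 7 stromal markers was also highest there, at 24.9 CPM against 9.84 CPM in Vil-CREPTKO replicate 2 and 16 and 13.9 CPM in WT. The macrophage gene Csf1r was highest there too, at 6.08 CPM against 1.31 CPM in Vil-CREPTKO replicate 2 and 3.79 and 1.9 CPM in WT. The immune markers Cd68 and Itgam were instead highest in WT replicate 1. Cd68 had 3.52 and 1.3 CPM in WT and 2.71 and 2.84 CPM in Vil-CREPTKO, and Itgam 3.94 and 3.28 CPM against 2.16 and 2.34 CPM. The sum over 4 endothelial markers was 3.04 and 3.36 CPM in WT and 3.03 and 2.01 CPM in Vil-CREPTKO. The part of these cells in the Stab1 values was not tested. The partners of Stab1 and Oplah, Nt5dc2 (0.93) and Smpd5 (−0.66), were not called.

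**Figure D3:**
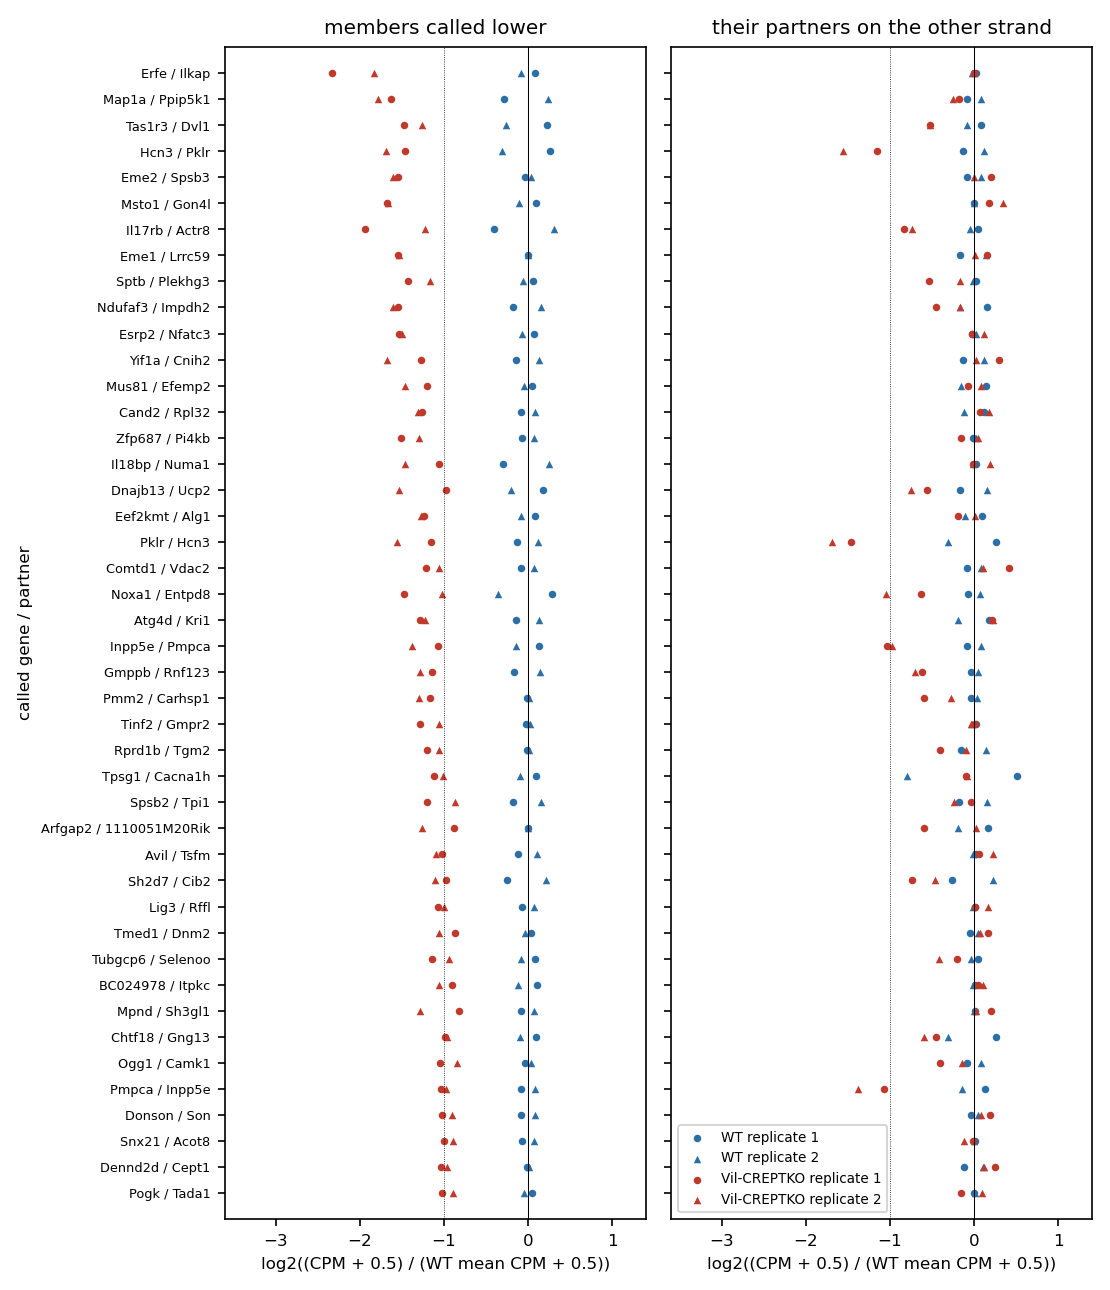
Level of 44 of the 46 members called lower (left) and of its partner on the other strand (right) in each library, as log2 of CPM plus 0.5 relative to the WT mean (x axis), with 1 row per called gene; WT is blue and Vil-CREPTKO red, circles are replicate 1 and triangles replicate 2. The called genes lie between −2.324 and −0.818 in the Vil-CREPTKO libraries, while most partners lie near 0.

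The next question was whether the members of a pair moved together. In 5 of the 44 pairs with a member called lower, both members had an adjusted p under 0.05, where 6.54% of all members and 2.71% of all genes tested had one. In the other 39 the partner did not pass, which does not show that it did not change. In 42 pairs exactly 1 member was called lower, and the partners in these pairs had a median log2 fold change of −0.066, with 25 negative, 33 within 0.5 of 0 and a range of −2.02 to 0.27 (Vdac2, a channel of the outer mitochondrial membrane, partner of Comtd1). Both members were called lower in 2 pairs, Pmpca/Inpp5e and Pklr/Hcn3. Pklr, the pyruvate kinase of liver and intestine, fell from 210 and 249 CPM to 103 and 77.7 CPM (−1.34, adjusted p = 0.00719), and Hcn3, a cation channel gene that shares 711 exonic bp with it, from 6.68 and 4.35 CPM to 1.68 and 1.36 CPM (−1.86, adjusted p = 0.0206). Called genes lay on both strands, 22 on the plus strand and 24 on the minus strand.

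In 3 more pairs both members had an adjusted p under 0.05 but only 1 passed the fold threshold. Besides Gmppb/Rnf123 these were Entpd8/Noxa1 and Actr8/Il17rb. Entpd8, a nucleotide-cleaving enzyme of the cell surface, fell from 101 and 112 CPM to 68.6 and 51.4 CPM (log2 fold change −0.83, adjusted p = 0.0288) and Noxa1, an activator of NADPH oxidase, from 25.3 and 16.1 CPM to 7.13 and 9.94 CPM (−1.28, adjusted p = 0.0352). Actr8, a subunit of the INO80 chromatin remodeller, fell from 27.1 and 25.5 CPM to 14.5 and 15.6 CPM (−0.80, adjusted p = 0.0245). Actr8, Il17rb and Noxa1 no longer had an adjusted p under 0.05 when Vil-CREPTKO replicate 1 was left out, and the same held for Il17rb with WT replicate 2 left out and for Noxa1 with WT replicate 1 left out.

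Over all 622 pairs, the log2 fold changes of the plus-strand and minus-strand members had a Spearman correlation of 0.024 and a Pearson correlation of 0.092, and both members had the same sign in 318 pairs (51.1%). Across the 1001 gapped tail-to-tail pairs the Spearman correlation was 0.034 with the same sign in 51.2%, and across the 414 head-to-head overlapping pairs 0.17 with 55.1%. All points share the same 4 libraries and neighbours share base composition, and these values are given as descriptions across pairs. In the plot of one member against the other, 33 of the 42 pairs with 1 member called lower lie within 0.5 of an axis, and the other 9, with the 2 pairs in which both were called, lie in the lower left.

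**Figure D4:**
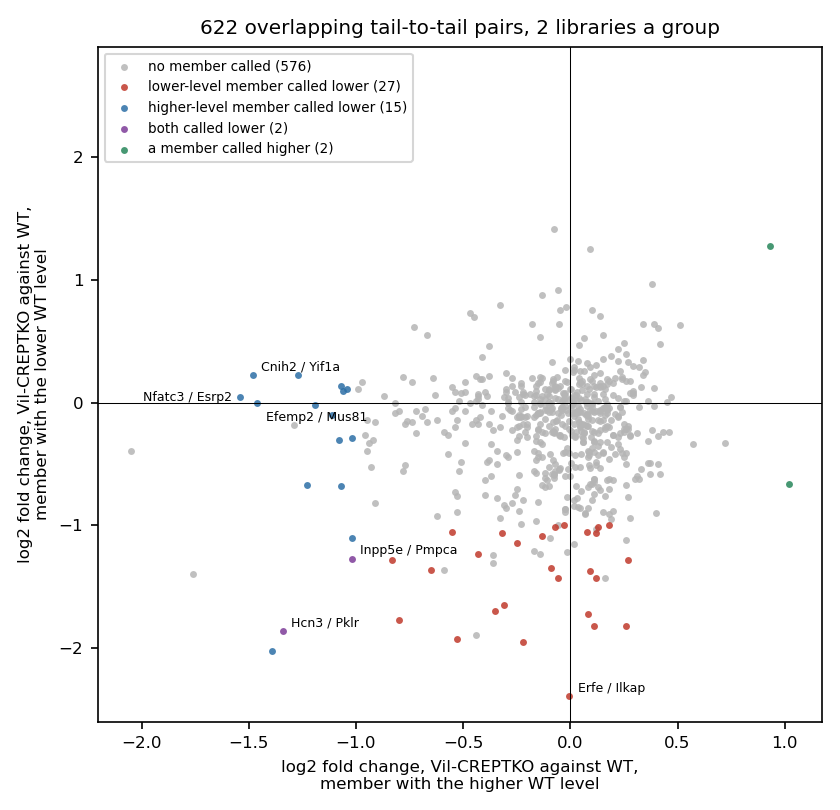
Log2 fold change of the member with the lower WT level (y axis) against that of the member with the higher WT level (x axis) for the 622 pairs, coloured by which member was called. In 27 pairs only the lower-level member was called lower, in 15 only the higher-level member, in 2 both, and in 2 a member was called higher.

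The balance within each pair was tested directly as the change of the log2 ratio of its members. It changed in 27 of the 622 pairs (4.34%), against 2.91% of the 12695 neighbouring pairs tested together (limma, adjusted p under 0.05). In 17 of the 27 the member with the lower WT level fell relative to the other, in 10 it rose, and 18 held a called gene. The smallest p was that of Nfatc3/Esrp2, where Nfatc3 rose relative to Esrp2 by 1.58 (SE 0.17, adjusted p = 0.00789). Msto1 changed by −2.06 relative to Gon4l (SE 0.25, adjusted p = 0.0115), Zfp687 by −1.37 relative to Pi4kb (SE 0.17, adjusted p = 0.0118) and Erfe by −2.39 relative to Ilkap (SE 0.33, adjusted p = 0.0154). In Cog1/Fam104a the ratio changed by −1.22 (SE 0.17, adjusted p = 0.014) although neither gene was called: Cog1, a Golgi tethering complex subunit, went from 50.1 and 53.1 CPM to 26.7 and 27.0 CPM (−0.94, adjusted p = 0.0063) and Fam104a from 36.6 and 36.5 CPM to 46.7 and 41.9 CPM (0.28, adjusted p = 0.35). This count rested on single libraries: it fell when either WT library was left out and rose when either Vil-CREPTKO library was left out. The share over all neighbouring pairs tested moved the same way.

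Pairs were next divided by the WT levels of their members. In each pair the member with fewer CPM per kb of exon in WT was taken as the lower-level member. Lower-level members were called lower at 29 of 622 places (4.66%) and higher-level members at 17 (2.73%). The median log2 fold change was −0.14 for lower-level members, with 420 negative (67.5%), and −0.024 for higher-level members, with 332 negative (53.4%). The order was set by the WT libraries, which are also the baseline of the fold change. When the order came from 1 WT library and the fold change from the other, the lower-level median was −0.085 and −0.19, against −0.015 and −0.0017 for higher-level members. Without WT replicate 1 it was −0.076. After correction for GC content and length it was −0.068, against 0.054 for higher-level members.

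The medians of the 2 members moved apart as their WT levels did. In the 173 pairs with a ratio under 2, the medians were −0.10 for lower-level and −0.071 for higher-level members. In the 240 pairs with a ratio of 2 to under 8 they were −0.083 and −0.023, and in the 124 pairs of 8 to under 32, −0.21 and −0.004. In the 85 pairs with a ratio of 32 or more they were −0.34 and 0.047, with 63 of 85 lower-level members negative (74.1%). The GC- and length-corrected medians of lower-level members were −0.035, −0.02, −0.14 and −0.24 in the same order. The share of lower-level members called lower showed no such order, at 5.2%, 4.17%, 4.03% and 5.88%.

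The medians were also taken within ranges of WT level. Among protein-coding genes outside the pairs the median log2 fold change was −0.16 at 0.5 to under 1 CPM per kb, −0.067 at 1 to under 2, −0.016 at 2 to under 5, 0.013 at 5 to under 20 and 0.066 at 20 or more. Lower-level members of the pairs had medians of −0.12, −0.17, −0.14, −0.10 and 0.033 in these ranges of WT level. Below 0.5 CPM per kb, where 53 of the 85 lower-level members of the most unequal pairs lay, the medians were −0.031 in the 1377 genes outside the pairs and −0.22 in the 135 lower-level members. The median of lower-level members was below that of the genes outside the pairs in all of these ranges except 0.5 to under 1 CPM per kb.

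Sorted by overlap length, lower-level members were called lower most often in the shortest class and higher-level members in the next. In the 104 pairs that overlap by under 100 bp, 9 lower-level members (8.65%) and 2 higher-level members (1.92%) were called lower. The counts were 10 (5.59%) and 9 (5.03%) in the 179 pairs of 100 to under 1000 bp and 8 (3.07%) and 6 (2.3%) in the 261 pairs of 1000 to under 10000 bp. In the 78 pairs of 10000 bp or more, 2 lower-level members (2.56%), the targeted gene Rprd1b and Il17rb, and 0 higher-level members were called lower. Of the 155 genes in these pairs, 19 had an unadjusted p under 0.05 (edgeR). The median of the lower-level members was −0.13, −0.14, −0.17 and −0.048 from the shortest to the longest class, and that of the higher-level members −0.048, −0.037, −0.023 and 0.02. Gene bodies in long overlaps are long as well, and gene body length itself went with the share called lower.

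**Figure D5:**
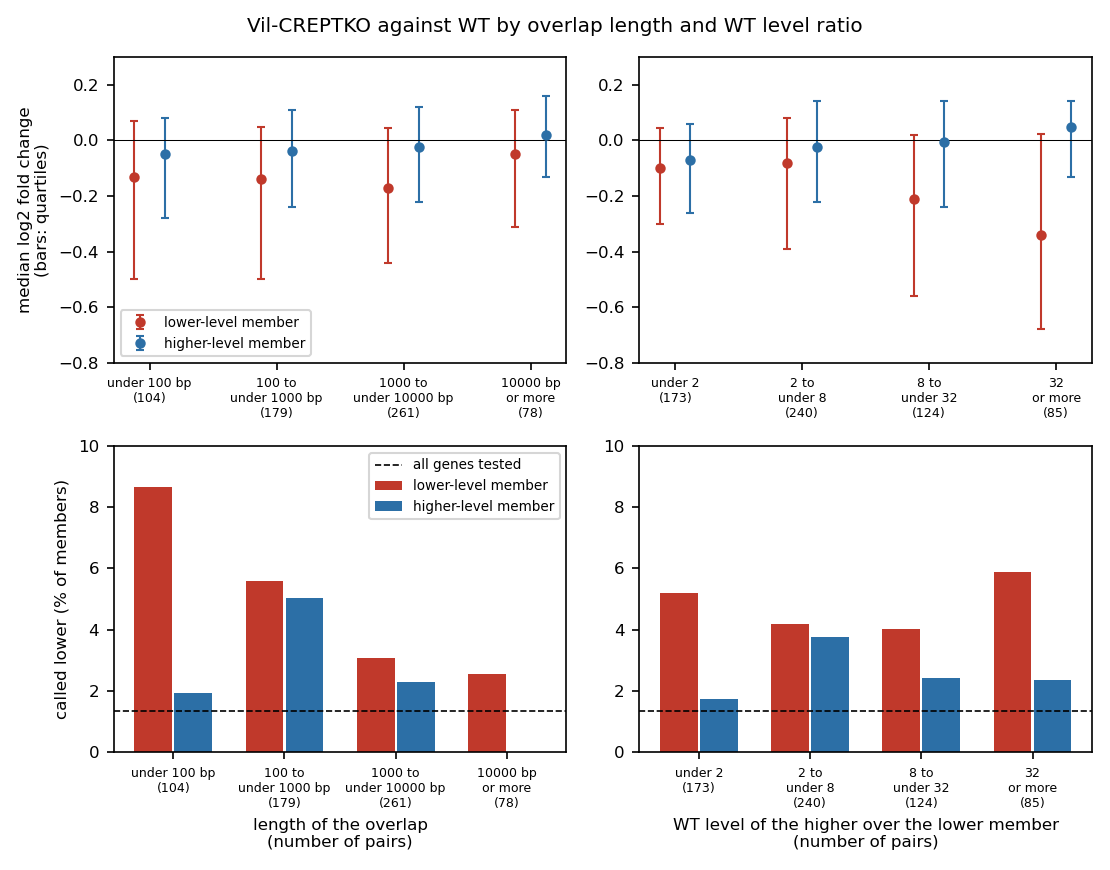
Median log2 fold change with quartile bars (top) and percent called lower (bottom) of the lower-level (red) and higher-level (blue) members, by overlap length (left) and by the ratio of their WT levels (right); the dashed line is the 1.34% of all genes tested. The medians of the 2 members separate most in pairs with a WT ratio of 32 or more, at −0.34 and 0.047.

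The shortest overlaps included pairs in which a called gene touches its partner by a few bases. Sptb, a spectrin chain, overlaps Plekhg3 by a single base pair and had 3.09 and 2.82 CPM in WT, compared with 0.782 and 1.04 CPM in Vil-CREPTKO (log2 ratio −1.7, SE 0.34, adjusted p = 0.0391). Comtd1, a methyltransferase-like gene, overlaps Vdac2 by the 25 bases printed above and went from 5.78 and 6.48 CPM to 2.35 and 2.69 CPM (−1.28, adjusted p = 0.0313), while Vdac2 had 411 and 462 CPM in WT and 580 and 470 CPM in Vil-CREPTKO. Tas1r3, a subunit of sweet and umami taste receptors, overlaps Dvl1 of the Wnt pathway by 36 bp and went from 2.9 and 1.93 CPM to 0.552 and 0.713 CPM (−1.93, adjusted p = 0.0456). The partners Plekhg3 and Dvl1 were not called but were lower in both Vil-CREPTKO libraries. As log2 of CPM plus 0.5 relative to the WT mean, Plekhg3 stood at −0.536 and −0.171 there and Dvl1 at −0.519 and −0.527. Each of these called genes had groups that did not overlap; they were picked out after their values were seen.

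The 5 longest overlaps held no gene called by edgeR, and 0 of these 10 genes had an unadjusted p under 0.05. Rabgap1 and Strbp, which share 83227 bp, had log2 fold changes of −0.052 and −0.042. Lysmd4 and Mef2a, sharing 76168 bp, had −0.064 and 0.21, Pcca and Ggact, sharing 74878 bp, 0.01 and 0.072, and Arhgap6 and Hccs, sharing 54243 bp, −0.76 and 0.16. Ank and Otulin share 52275 bp without any exonic overlap and had 0.36 and 0.018. The value of Arhgap6 rested on 13 to 29 counts a library and had an SE of 0.59.

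Where exons overlap, reads from the shared bases could be credited to either gene, and the strand setting of the counting was not stated. As a measure of what is at stake, the partner's WT level was multiplied by the length of the shared exonic bases and set against the gene's own WT CPM, with even coverage assumed. This product exceeded the gene's own CPM at 164 of 1244 places and at 5 of the 46 called places: Hcn3 (915%), Eme1 (435%), Cand2 (348%), Dnajb13 (331%) and Tmed1 (101%). For these genes the values cannot be taken as free of the partner. It was under 10% at 22 of the 46 called places (47.8%) and at 57.7% of all places. For Esrp2 it was 2.69%, for Zfp687 5.19%, for Ndufaf3 6.02% and for Yif1a 0.016%. Other called genes had larger values, with 80.8% for Inpp5e, 31.6% for Erfe, 31.5% for Msto1 and 22.0% for Dennd2d. Both pairs with both members called lower thus hold a gene, Hcn3 or Inpp5e, for which the product was large.

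The 5 pairs with the largest WT ratio were chosen for that ratio, so their members' counts had to lie far apart, and they say nothing of how reads were credited in other pairs. Ctnnb1, the gene of β-catenin in the Wnt pathway, had 467 and 525 CPM in WT and 521 and 505 CPM in Vil-CREPTKO, and Ulk4, a kinase-like gene with 759 exonic bases in common with it, had 0.333, 0.305, 0.322 and 0.326 CPM. The product for Ulk4 was 22736% of its own CPM, so almost none of what even coverage of the shared bases by Ctnnb1 reads would give was counted for Ulk4. Likewise Selenop, a selenium transport protein, had 893 and 1284 CPM in WT and 1234 and 742 CPM in Vil-CREPTKO, and Ccdc152, with 439 shared exonic bases, 0.591 to 1.22 CPM, a product of 18510%. Cfl1 (cofilin) and Snx32 gave 10718%, Rps28 and Kank3 2898%, and Ckmt1 and Strc, with 10 shared bases, 343%. Of these 10 genes none was called by edgeR or had an unadjusted p under 0.05, and the low members had log2 fold changes of 0.023 (Ulk4), −0.01 (Ccdc152), −0.77 (Snx32), −0.62 (Kank3) and −0.72 (Strc) with SEs of 0.45 to 0.62.

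Lower-level members had a median of −0.14 in the 594 pairs with overlapping exons and of 0.034 in the 28 pairs whose exons do not overlap. Pairs without overlapping exons were few and also had longer overlaps (a median of 8129 bp against 1102 bp).

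The 3 most highly expressed pairs held no gene called by edgeR, though 2 of their 6 genes had an unadjusted p under 0.05. The mitochondrial genes mt-Nd5 and mt-Nd6, subunits of complex I encoded on opposite strands with 14 bp in common, showed the highest values in Vil-CREPTKO replicate 1, the library with the largest mitochondrial share. mt-Nd5 had 3978 and 3847 CPM in WT and 6443 and 3984 CPM in Vil-CREPTKO, and mt-Nd6 had 1027 and 823 CPM in WT and 1862 and 956 CPM in Vil-CREPTKO. Lgals2, a galectin of the epithelium, had 1195 to 1329 CPM over all libraries (log2 fold change 0.067), and its partner Cdc42ep1, an effector of the GTPase Cdc42, 14.4 and 16.3 CPM in WT, compared with 6.3 and 10.1 CPM (−0.90, adjusted p = 0.0934). Prap1, a secreted epithelial protein, had a log2 fold change of −0.16 and its partner Fuom, a fucose mutarotase, of −0.57 (adjusted p = 0.0681).

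Of 31 genes of the machinery that cleaves, polyadenylates and terminates transcripts, Rprd1b was the only one with an adjusted p under 0.05, and 12 of the 31 had a negative log2 fold change (median 0.03). Other genes of this list are themselves members of overlapping pairs, and 0 of these 6 were called by edgeR or had an unadjusted p under 0.05: Cpsf1 (−0.12), Fip1l1 (−0.065), Cstf3 (0.17), Cpsf7 (0.13), Scaf4 (0.077) and Ints11 (0.18). Of 16 genes that sense or edit double-stranded RNA, the structure that complementary 3′ ends could form, 14 had a negative log2 fold change (median −0.43). Of these 16, 2 had an adjusted p under 0.05, Mavs and Oas1g, and 1 was called lower. Over all genes tested, 50.9% were negative (median −0.006), 2.71% had an adjusted p under 0.05 and 1.34% were called lower. Adar, the editing enzyme, is the member of a pair with Chrnb2 and had 49.6 and 57.3 CPM in WT, compared with 35.1 and 43.1 CPM in Vil-CREPTKO (−0.45, SE 0.14, adjusted p = 0.177).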

How the data were processed

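RNA-seq was compared between crypts of 2 WT and 2 Vil-CREPTKO samples, grouped by their titles. The deposited values were whole-number read counts per gene, 1 column a library. The authors mapped clean reads to reference transcripts of GRCm38.p6 with Bowtie2 and estimated expression with RSEM, and the submitters' processing notes also name CASAVA 1.8; other versions, the annotation and the strand setting are not given in the sources used here, so reads of overlapping genes may have been credited to either. Identifiers were matched to GENCODE M21 (53360 of 53845, 99.1%); 380 unnamed loci (0.178% to 0.247% of counts) stayed in the fit.

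Counts were fitted with edgeR 4.0.16 (R 4.3.3; filterByExpr, TMM, glmQLFit, glmQLFTest, two-sided, group only, Benjamini-Hochberg over 17504 genes). CPM are TMM-scaled, except those of the marker lists other than tuft cells, which use library totals, with no pseudocount except 0.5 in the plot by library. Within-pair ratios were tested with limma 3.58.1 on the difference of log2 CPM (prior count 2) over 12695 neighbouring or overlapping pairs. With 2 libraries a group, spread between libraries limited the precision (common coefficient of variation 0.188). For members with few counts, counting error added to it. The scripts were tested on simulated data. DESeq2 1.42.0, other scalings and filters, a GC and length correction (loess, exonic length), a replicate block and fits without each library were the alternatives.

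Members and gene lists were chosen with earlier results of these data known. Named were Rprd1b, the 15 pairs with the smallest p among those with a called member, pairs with both adjusted p under 0.05, the 5 with the longest overlap, the 5 with the largest WT ratio, the 5 with the smallest ratio p and the 3 with the highest WT level; other names were added after values were seen. Single values of 2 called members, 1 of them named by this rule, are not reported here. The last bases of genes come from the GENCODE M21 transcript ending at the gene's annotated end, protein-coding where there was one.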

Additional observations from a re-analysis of the deposited data

How the results depend on the processing

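All 46 members called lower kept a negative log2 fold change under every alternative run. They had been chosen in these same libraries for a log2 fold change below −1, so a change of sign was unlikely. With DESeq2, 48 members were called lower, 42 of them among the 46. Over all genes of that fit, which had no filter on low counts, 309 of 28324 were called lower (1.09%). In the main fit this was 235 of 17504 (1.34%). Upper-quartile scaling gave 30 members and the GC and length correction 25, all of them among the 46, against 1.05% and 1.07% of all genes tested. Among fits without 1 library, the number fell most without WT replicate 2, where the share over all genes tested was also lower. Members called higher numbered 2; they were 0 with RLE scaling and 0 with upper-quartile scaling in edgeR (32 and 42 at an unadjusted p under 0.05), 1 with library-size scaling, 4 with no filter on low counts, 3 with DESeq2, and 0 to 4 without 1 library (0 without Vil-CREPTKO replicate 1, with 23 at an unadjusted p under 0.05). Members with an adjusted p under 0.05 numbered 81, 122 with DESeq2 and 145 with no filter. Over all genes of each fit the numbers were 474 of 17504 (2.71%), 808 of 28324 (2.85%) and 1233 of 28324 (4.35%) in the same order. The DESeq2 and unfiltered fits also held genes with few counts, so their shares have another base than that of the main fit. Pairs with a changed ratio numbered 27, and 7 to 41 without 1 library.

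The median log2 fold change of the members was −0.074; it was −0.17 with library-size scaling, which shifts all genes down, 0.0017 after the GC and length correction and −0.09 to −0.049 without 1 library. For lower-level members it was −0.14, and −0.23 with library-size scaling, −0.12 with RLE scaling, −0.068 after the GC and length correction, −0.12 with at least 50 counts, −0.085 and −0.19 with the order from WT replicate 1 or 2 alone, and −0.18 to −0.076 without 1 library. For higher-level members it was −0.024, and −0.11, −0.0062 and 0.054 in the first 3 of these settings, −0.015 and −0.0017 with the order from 1 WT library, −0.012 with the order from all 4 libraries, −0.02 with the order from CPM, and −0.032 to −5.8e-04 without 1 library. The Spearman correlation within pairs was 0.024, and −0.028 after the GC and length correction, 0.017 in pairs with overlapping exons, −0.02 with at least 50 counts and 0.011 to 0.052 without 1 library.

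The replicate block gave 47 members called lower (46 of them shared), 2 called higher, 85 with an adjusted p under 0.05 and 24 changed ratios. Libraries of the same number did not deviate together (correlation 0.0277) and the labels give no pairing. Of the named genes with an adjusted p under 0.05, Actr8, Il17rb, Noxa1 and Rnf123 lost it under at least 1 alternative. With 2 libraries a group, the named members Ulk4, Ccdc152, Kank3, Arhgap6 and Gng13, all under 1 CPM in the WT mean, had SEs of 0.49 to 0.62, so modest changes of such low members were not detectable at this depth.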

Other observations

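Gapdh, a glycolytic enzyme often used as a reference gene, is the minus-strand member of a pair with Iffo1 (68 bp of exonic overlap) and was singled out after its values were seen. It had 20.2 CPM in WT replicate 1, 105 CPM in WT replicate 2, and 17.3 and 12.9 CPM in Vil-CREPTKO. The log2 fold change was −2.05 (SE 0.59, adjusted p = 0.134, edgeR), with WT replicate 2 far above the other 3 libraries. WT replicate 2 was also the library with Xist and no Y-linked counts. How reads of Gapdh were credited was not tested. Ciita, the regulator of major histocompatibility complex class II genes and a partner of Dexi over 25888 bp, showed the same single high library, with 25.3 CPM in WT replicate 2 against 8.99 CPM in WT replicate 1 and 6.83 and 7.7 CPM in Vil-CREPTKO (−1.24, SE 0.40, adjusted p = 0.18).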
